A study of Mus musculus with 6 samples.

Results

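A set of 9 genes of the hypophysiotropic releasing-hormone systems were followed, of 27884 genes in the deposited table. They are the hormone precursors Gnrh1, Ghrh, Trh and Crh, the CRH-binding protein gene Crhbp, and the receptor genes Crhr1, Crhr2, Trhr and Kiss1r. They were chosen by name, and all 9 were found and all 9 passed the filter on low counts, which left 18640 genes. The tissue was preoptic area (POA), the front of the hypothalamus, from NuTRAP::Pnoc-Cre females aged 17 to 18 weeks. NuTRAP is a reporter allele that puts an EGFP tag on ribosomes of cells with Cre recombinase, and Pnoc-Cre makes Cre where the prepronociceptin gene Pnoc is active. Both groups carry both alleles, and no group without Cre was analysed here. The IP group is RNA bound to ribosomes pulled down with antibodies against GFP (3 libraries). The input group is total RNA of the tissue put through in parallel (3 libraries), so that it also holds RNA of the tagged cells. Each replicate is a pool of 3 animals, and the p-values therefore measure the spread between pools and not between animals.

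Releasing hormones are short peptides that hypothalamic neurons set free into the portal blood of the pituitary. GnRH drives gonadotropin release, and the cell bodies that make it lie scattered through the preoptic area. GHRH drives growth hormone, TRH drives thyrotropin, and CRH drives corticotropin in the stress response. Each is cut from a larger precursor and acts on a receptor coupled to G proteins. Kiss1r, the receptor of kisspeptin, sits on GnRH neurons and excites them, while Crhbp binds CRH and keeps it from its receptors. TRH and CRH also act as transmitters inside the brain, on neurons that carry Trhr, Crhr1 or Crhr2.

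Trh, the most abundant of the 9, encodes the same small peptide several times over. Its reading frame in the canonical GENCODE transcript has 256 codons and held 5 copies of the TRH core, each between pairs of codons for basic residues, where the precursor is cut. The 5 copies are shown because each Trh transcript can yield 5 copies of the peptide. The read counts do not measure the peptide. The 12 bases of the core are in capitals and 6 flanking bases on each side are in lower case, 5′ to 3′ on the coding strand.
Trh unit 1: aaacgcCAGCATCCGGGCaaaagg
Trh unit 2: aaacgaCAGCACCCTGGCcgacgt
Trh unit 3: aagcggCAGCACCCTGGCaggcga
Trh unit 4: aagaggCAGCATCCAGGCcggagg
Trh unit 5: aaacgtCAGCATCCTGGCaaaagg
Among the 5 copies there were 4 distinct core sequences, units 2 and 3 being the same in their 12 bases. They begin at codons 77, 109, 154, 172 and 203, counted from the start codon.

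Promoter sequence was looked up in RefSeq (GRCm38.p6) for all 9 genes and matched for 6, without an entry for Gnrh1, Crh and Trhr. The windows of Ghrh and Trh are shown because these ligand genes were both higher in IP. Each runs over the 250 bases before an annotated start, all on the minus strand, 5′ to 3′ in the direction of the gene. Capitals mark matches, on either strand, to TATAAA (the TATA box), TGACG (a half-site of the cAMP response element) or AGGTCA (a half-site bound by nuclear receptors). No match overlaps another in these windows.
Ghrh far start, chr2:157346656-157346905: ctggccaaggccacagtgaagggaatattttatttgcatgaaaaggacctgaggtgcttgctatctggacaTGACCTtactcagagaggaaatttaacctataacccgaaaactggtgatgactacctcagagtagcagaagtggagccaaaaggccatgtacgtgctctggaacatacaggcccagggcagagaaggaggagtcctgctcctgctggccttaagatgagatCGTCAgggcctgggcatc
Ghrh near start, chr2:157337427-157337676: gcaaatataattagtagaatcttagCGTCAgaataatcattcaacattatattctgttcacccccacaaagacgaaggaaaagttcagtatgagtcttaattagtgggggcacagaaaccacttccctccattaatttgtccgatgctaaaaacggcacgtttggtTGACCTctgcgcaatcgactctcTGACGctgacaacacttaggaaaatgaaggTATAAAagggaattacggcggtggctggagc
Trh, chr6:92244651-92244900: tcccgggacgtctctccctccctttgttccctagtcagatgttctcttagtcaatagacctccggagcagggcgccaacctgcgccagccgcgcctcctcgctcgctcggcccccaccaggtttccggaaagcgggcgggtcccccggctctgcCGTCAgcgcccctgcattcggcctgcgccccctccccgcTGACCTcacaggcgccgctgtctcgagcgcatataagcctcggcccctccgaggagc
The near Ghrh window held 1 TATAAA, beginning 31 bases before the start, 2 TGACG matches and 1 AGGTCA match. The far Ghrh window and the Trh window each held 1 TGACG and 1 AGGTCA match. Among 32851 windows of the same length 12.4% held TATAAA, 17.8% held TGACG and 14.0% held AGGTCA. These matches describe the letters and were not tied to the counts by any measurement.

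Of the 4 ligand genes 3 rose in IP, and of the 5 genes for receptors and binding protein 0 passed the test. Gnrh1 rose 6.98-fold, Ghrh 3.49-fold and Trh 2.61-fold, whereas Crh stood at a 1.74-fold difference that did not pass. In edgeR's quasi-likelihood test at an adjusted p under 0.05, 3 of 9 members were higher and 0 lower. Over all genes tested 12.9% were higher and 17.1% lower by that rule. By an unadjusted p under 0.05 in the same test 4 members were higher, Crh being the added gene, and 0 lower. DESeq2 gave 3 higher and 0 lower. DESeq2 and edgeR with the replicate as a block each called Gnrh1, Ghrh and Trh, against 16.4% of all genes higher and 19.7% lower in DESeq2 and 15.2% and 19.4% with the block. The median log2 fold change of the 9 members was 0.67, against -0.07 over all genes. That median is the value of Crhbp, which rests on IP replicate 1 and became -0.09 without that library. For the 4 ligands the median was 1.59 and for the other 5 members 0.09. Of the 5, 0 were called in either direction (0 by an unadjusted p under 0.05, 0 by DESeq2). The IP libraries lay wholly above the input libraries for 4 members, the 4 ligands, and 21.7% of all genes tested did so.

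**Figure D1:**
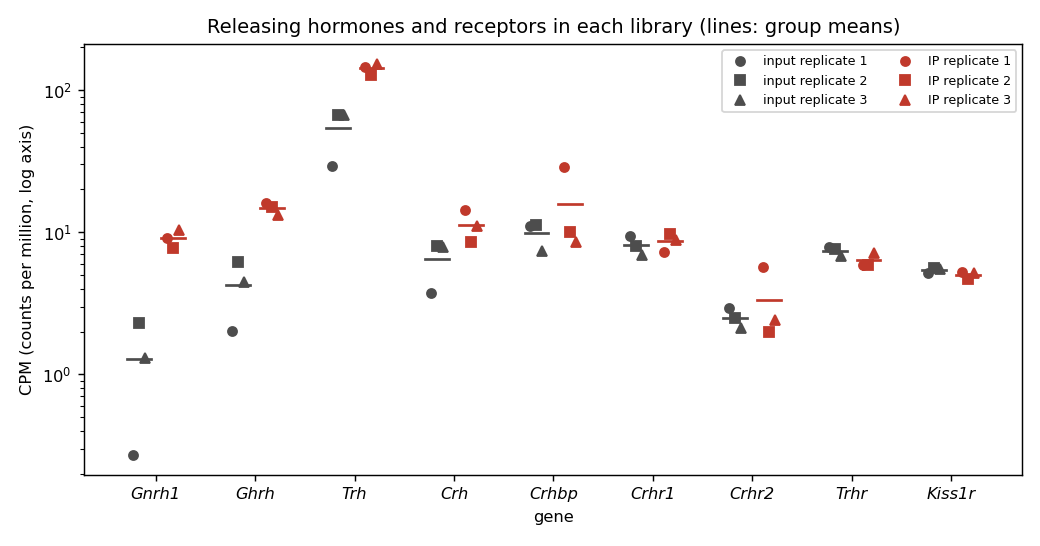
CPM of the 9 genes (log axis) in each of the 3 input (grey) and 3 IP (red) libraries, with symbols for replicates and lines for group means. For Gnrh1, Ghrh, Trh and Crh every IP point lies above every input point, and input replicate 1 (grey circles) is the lowest library of each, while the points of Crhr1, Trhr and Kiss1r overlap.

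The libraries held from 48204567 to 53056642 counts. Pnoc itself had 47.7, 43.1 and 41.1 CPM (counts scaled to a common library size with TMM factors) in IP replicates 1, 2 and 3 and 7.51, 10.98 and 13.2 CPM in input, which checks the labels. Among 15 pan-neuronal genes 7 were higher and 1 lower in IP (median log2 fold change 0.56). With library totals as the scaling 4 of them were higher, and without both libraries of replicate 3 the number was 0. Without IP replicate 2, IP replicate 3 or input replicate 3 there were 3. Among 9 GABAergic genes 5 were higher (median 0.92), and 3 without both libraries of replicate 3. Of 8 glutamatergic genes 1 was higher and 1 lower (median -0.25). All 10 astrocyte, all 10 oligodendrocyte and all 10 microglial markers were lower, as were 8 of 10 endothelial and mural markers. Summed microglial markers lay between 19.9 and 31.3 CPM in IP and between 196 and 237 CPM in input, and no marker of these 4 lists was at 0 in all libraries. The part of these neuronal markers in the rise of the ligands was not tested. IP and input came from the same pools of tissue, so these values compare the RNA pulled down with the RNA of the whole tissue. They do not measure numbers of cells or RNA per cell. With library totals alone as the scaling the median of all genes moved by -0.11 on the log2 scale, and higher genes made up 32.0% of the calls in place of 42.9%.

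Gnrh1 (ENSMUSG00000015812, chromosome 14, 67982630 to 67986888, plus strand, mm39), the precursor of gonadotropin-releasing hormone, showed the widest separation of the 9. It had 9.06, 7.72 and 10.4 CPM in IP replicates 1, 2 and 3 and 0.27, 2.31 and 1.30 CPM in input. The groups did not overlap, and the IP libraries were close together while the input libraries spanned an 8.56-fold range. The lowest of them, input replicate 1, rested on 14 counts, for which the exact Poisson interval (95%, counting error only) ran from 7.65 to 23.5 counts. The log2 fold change was 2.80 ± 0.62 (SE), with a 95% interval from 1.38 to 4.22 and the adjusted p was 0.0113 (edgeR, quasi-likelihood). That was the 22nd highest of 18640 log2 fold changes, Pnoc being the 82nd. Without input replicate 3 the call was lost (2.82, adjusted p = 0.051, edgeR), without input replicate 2 the estimate was 3.55, and without input replicate 1 it was 2.33. The authors' deposited table gives 2.83 with an adjusted p of 1.63e-06 from DESeq2. An antisense long noncoding gene, Gm62608, covers 190 bases of the exons of Gnrh1 in GENCODE, and reads of the pair cannot be told apart without strand information. Gm62608 has no entry among the deposited counts, so no value of its own can be set beside Gnrh1.

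Set against Pnoc in the same library, a ratio that does not depend on scaling, Gnrh1 was not separated between the groups. The log2 ratio of Gnrh1 to Pnoc counts was -2.40, -2.48 and -1.99 in IP replicates 1, 2 and 3 and -4.75, -2.24 and -3.34 in input. Input replicate 2 lay above 2 of the IP libraries. The difference of the means was 1.16, with p = 0.30 in an exact two-sided permutation test of 3 against 3 libraries, which cannot go below 0.10. Adjusted over the 5 ratios computed it was 0.67.

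Ghrh (ENSMUSG00000027643, chromosome 2, 157171417 to 157189426, minus strand), the precursor of growth hormone-releasing hormone, had 16.1, 15.1 and 13.1 CPM in IP and 2.03, 6.19 and 4.48 CPM in input, in the order of the replicates. All IP libraries were above 13 CPM and no input library reached 7 CPM. On the log2 scale Ghrh rose by 1.80 ± 0.37 (SE, 95% interval 0.96 to 2.65), and the adjusted p was 0.00819 (edgeR, quasi-likelihood). Leaving out any single library gave values from 1.48 to 2.21, each of them called. Ghrh is known best from the arcuate nucleus, behind the preoptic area. Of 8 arcuate markers tested 0 were called in either direction (2 higher by an unadjusted p under 0.05, 2 by DESeq2, 1 with the block), and their summed level was 64.1 to 91.5 CPM in IP and 53.8 to 66.2 CPM in input.

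Trh (ENSMUSG00000005892, chromosome 6, 92219042 to 92221631, minus strand), the precursor of thyrotropin-releasing hormone, had 145, 127 and 153 CPM in IP replicates 1, 2 and 3 and 29.3, 66.9 and 66.8 CPM in input. Input replicates 2 and 3 were alike and input replicate 1 was lower than both. On the log2 scale the rise was 1.38 ± 0.29 (SE, 95% interval 0.72 to 2.05), and the adjusted p was 0.00925 (edgeR, quasi-likelihood). Leaving out single libraries gave 1.09 to 1.59, each of them called. The antisense gene Gm67229, also without an entry among the deposited counts, covers 349 exon bases of Trh. The Trh counts therefore carry the same limit as those of Gnrh1.

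Crh (ENSMUSG00000049796, chromosome 3, 19747565 to 19749560, minus strand), the precursor of corticotropin-releasing hormone, had 14.4, 8.54 and 11.04 CPM in IP and 3.71, 7.95 and 7.89 CPM in input. The groups were separate, but IP replicate 2 stood only just above input replicate 2. The log2 fold change was 0.80 ± 0.33 (SE, 95% interval 0.04 to 1.56). The p was 0.042 before adjustment and 0.106 after it (edgeR, quasi-likelihood). The adjusted p of the 16 alternative analyses lay between 0.054 and 0.42, and none called Crh. The authors' deposited table gives 0.82 with an adjusted p of 0.055.

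**Figure D2:**
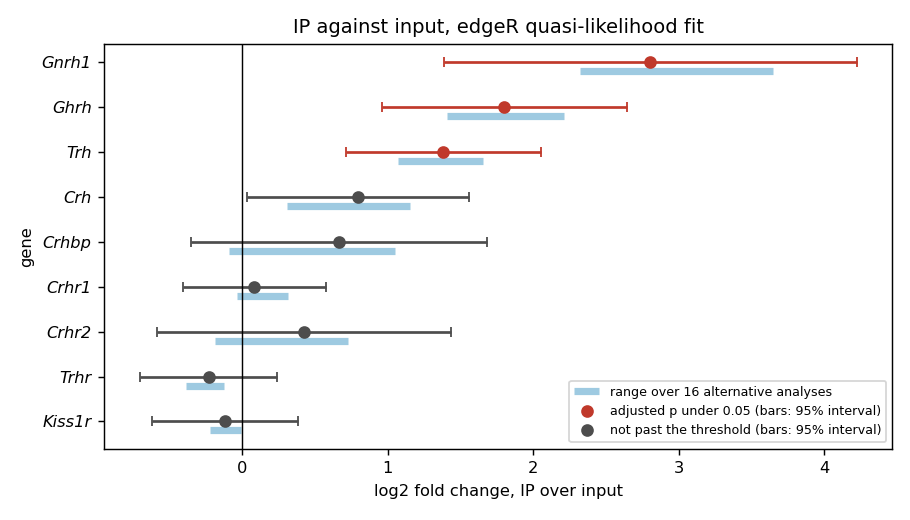
Log2 fold change of IP over input for the 9 genes (points) with 95% intervals (thin bars) from edgeR's quasi-likelihood fit, and the range of the estimate over 16 alternative analyses (blue). Gnrh1, Ghrh and Trh (red) passed the threshold, and the blue ranges of Crhbp, Crhr1 and Crhr2 cross 0.

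The ligand ratios were largest in pool 1 for all 4 genes. In pools 1, 2 and 3 the IP level of Gnrh1 was 32.4, 3.33 and 7.96 times that of the input of the same pool. For Ghrh these ratios were 7.89, 2.44 and 2.93, for Trh 4.94, 1.90 and 2.30, and for Crh 3.87, 1.07 and 1.40. The order of the pools was the same for the 4 genes. The IP level of Gnrh1, Ghrh and Trh in replicate 1 was 1.001, 1.14 and 1.03 times the mean of the other IP libraries, so that for these 3 genes the large ratios came with a low input. For Crh the IP level in replicate 1 was also high, at 1.47 times that mean. Input replicate 1 held 0.15 times the Gnrh1, 0.38 times the Ghrh, 0.44 times the Trh and 0.47 times the Crh of the mean of the other inputs.

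Input replicate 1 also had the highest summed cortical and striatal markers. The summed level of 9 markers of cortical excitatory neurons was 967 CPM there, against 334 and 293 CPM in input replicates 2 and 3, and 324 to 390 CPM in IP. The summed level of 9 striatal markers was 1602 CPM there, against 463 and 726 CPM in the other inputs, and 357 to 708 CPM in IP. None of these markers was at 0 in all libraries. The order was not the same for other regions. The 6 markers of the paraventricular and supraoptic nuclei summed to 327 CPM in input replicate 1, the lowest of the inputs, against 584 and 656 CPM in input replicates 2 and 3. Choroid plexus markers summed to 238, 228 and 768 CPM in the 3 inputs. The part of these regions in the ligand values was not tested. Without both libraries of replicate 1, Gnrh1 stood at 2.32 (adjusted p = 0.00276), Ghrh at 1.40 (adjusted p = 0.00557), Trh at 1.07 (adjusted p = 0.00169) and Crh at 0.31 (adjusted p = 0.42, all edgeR), each on the log2 scale. The calls of the first 3 genes were therefore also made without that pool, with smaller folds. Without both libraries of replicate 3, 0 of 9 members passed in edgeR's test, with 2.70 (adjusted p = 0.14), 1.93 (adjusted p = 0.10) and 1.5 (adjusted p = 0.093) for Gnrh1, Ghrh and Trh, and only 133 of all genes were then called higher.

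**Figure D3:**
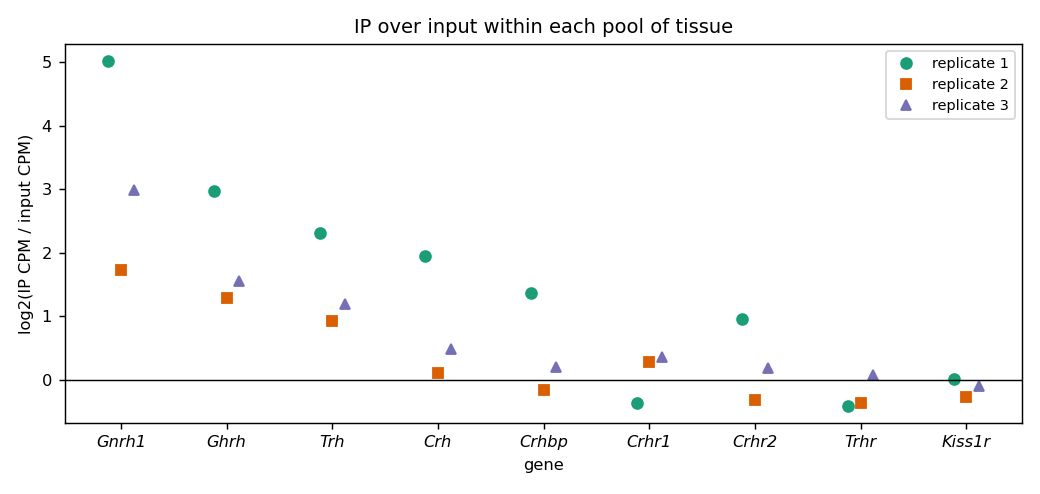
Log2 ratio of IP to input CPM within each pool of tissue (0.5 added to each count) for the 9 genes. Replicate 1 (circles) has the highest ratio for Gnrh1, Ghrh, Trh, Crh, Crhbp, Crhr2 and Kiss1r, and the lowest for Crhr1 and Trhr.

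**Figure D4:**
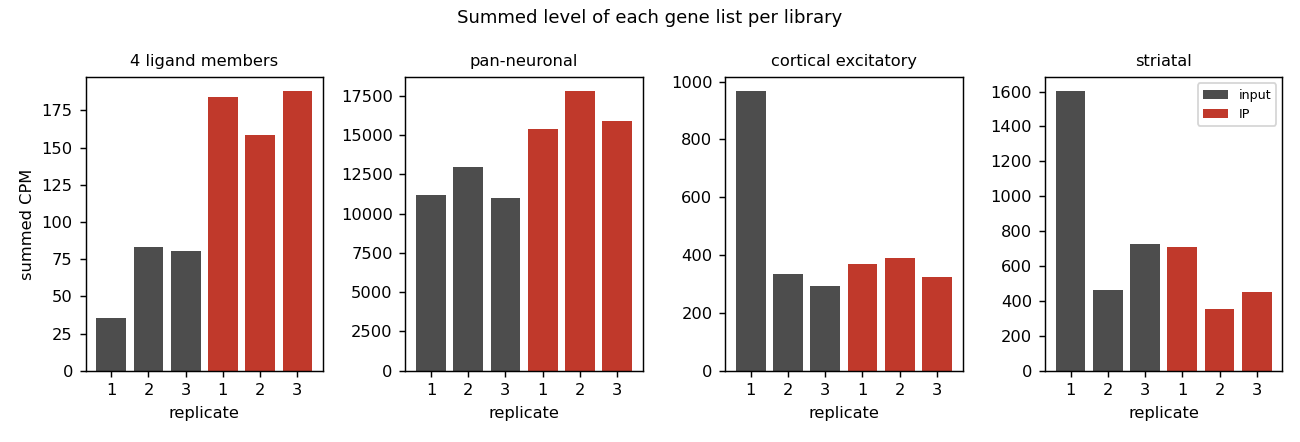
Summed CPM of the 4 ligand genes and of pan-neuronal, cortical excitatory and striatal marker lists in each library (bars from 0; grey, input; red, IP). Input replicate 1 has the lowest ligand sum (35.3 CPM) and the highest cortical (967 CPM) and striatal (1602 CPM) sums.

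For Crhbp and Crhr2 a single library, IP replicate 1, stood apart from the others. Crhbp (ENSMUSG00000021680, chromosome 13, 95567879 to 95581432, minus strand), whose protein captures CRH outside the cell, had 28.7, 10.02 and 8.52 CPM in IP replicates 1, 2 and 3 and 11.1, 11.2 and 7.42 CPM in input. IP replicate 1 stood at 3.09 times the mean of the other IP libraries, and the remaining libraries of both groups overlapped. The log2 fold change of 0.67 ± 0.44 (SE, adjusted p = 0.29, edgeR) became -0.09 without IP replicate 1.

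Crhr2 (ENSMUSG00000003476, chromosome 6, 55067034 to 55110001, minus strand), the CRH-family receptor that also binds urocortins, had 5.69, 1.99 and 2.40 CPM in IP and 2.92, 2.48 and 2.11 CPM in input. Here too IP replicate 1 stood apart, at 2.59 times the mean of the other IP libraries. The log2 fold change of 0.43 ± 0.44 (SE, adjusted p = 0.51, edgeR) became -0.18 without that library. Crhr1 did not share this, being lowest of the IP libraries in replicate 1. The log2 ratio of Crhr1 to Crhr2 counts was 0.36 in IP replicate 1, against 2.28 and 1.87 in the other IP libraries and between 1.69 and 1.70 in the 3 inputs. Choroid plexus markers, of a tissue that can carry Crhr2, summed to 61.9, 36.7 and 143 CPM in IP replicates 1, 2 and 3. In input they summed to 238, 228 and 768 CPM. IP replicate 1 had the highest IP sums of striatal markers (708 CPM, against 357 and 451) and GABAergic markers (2824 CPM, against 2024 and 2083). It had the lowest IP sums of glutamatergic markers (344 CPM, against 598 and 444) and pan-neuronal markers (15356 CPM, against 17791 and 15884). The part of these lists in the Crhbp and Crhr2 values was not tested. The antisense gene Gm34358, likewise without an entry among the deposited counts, covers 194 exon bases of Crhr2.

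For the remaining 3 receptor genes the estimates lay close to 0 and the groups overlapped. Crhr1 (ENSMUSG00000018634, chromosome 11, 104023681 to 104066349, plus strand), the main CRH receptor of the brain, had 7.31, 9.74 and 8.79 CPM in IP and 9.47, 8.01 and 6.88 CPM in input. The estimate on the log2 scale was 0.09 ± 0.22 (SE, adjusted p = 0.80, edgeR), with a 95% interval from -0.41 to 0.58. A rise above 1.49-fold and a reduction beyond 24.6% lie outside that interval.

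Trhr (ENSMUSG00000038760, chromosome 15, 44059531 to 44099308, plus strand), a receptor of TRH, had 5.93, 5.90 and 7.15 CPM in IP and 7.86, 7.59 and 6.80 CPM in input. The difference on the log2 scale was -0.23 ± 0.21 (SE, adjusted p = 0.44, edgeR), and its 95% interval ran from a reduction of 38.4% to a 1.18-fold rise. Kiss1r (ENSMUSG00000035773, chromosome 10, 79752805 to 79758107, plus strand), the kisspeptin receptor, had 5.27, 4.66 and 5.18 CPM in IP and 5.20, 5.64 and 5.55 CPM in input. It stood at a log2 fold change of -0.12 ± 0.22 (SE, adjusted p = 0.72, edgeR), with a 95% interval from a reduction of 34.8% to a 1.30-fold rise. Kiss1r was the steadiest of the 9 across pools, with a coefficient of variation of 6.49% in IP and 4.28% in input. The gene R3hdm4, on the opposite strand, covers 337 exon bases of Kiss1r and had 3748 to 7529 counts per library, against 215 to 307 for Kiss1r.

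Ligand and receptor were also compared within each library, where scaling has no part. The log2 ratio of Trh to Trhr counts was 4.61, 4.43 and 4.42 in IP and 1.90, 3.14 and 3.29 in input, so that every IP library was above every input library. The difference of the means was 1.71, with p = 0.10 in an exact two-sided permutation test, the smallest p that 3 against 3 allows, and 0.50 adjusted over the 5 ratios. The log2 ratio of Crh to Crhr1 was 0.97, -0.19 and 0.33 in IP and -1.35, -0.01 and 0.20 in input, which overlap (exact permutation p = 0.40, adjusted 0.67). The log2 ratio of Crh to Crhbp was -0.996, -0.23 and 0.37 in IP and -1.58, -0.49 and 0.09 in input, with a difference of the means of 0.38 (exact permutation p = 0.60, adjusted 0.75). These permutations do not use the pairing of the libraries by pool. Within pools 1, 2 and 3 the IP library exceeded its input by 0.58, 0.26 and 0.29 for Crh to Crhbp and by 2.71, 1.29 and 1.13 for Trh to Trhr, so that both ratios were higher in IP in all 3 pools. The differences within pools were 2.32, -0.18 and 0.13 for Crh to Crhr1 and 2.35, -0.24 and 1.36 for Gnrh1 to Pnoc, with pool 2 on the other side of 0. No paired test of these ratios was run.

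Levels were compared between genes by FPKM, the authors' counts scaled by gene length and by library size. In IP the order was Trh at 102 ± 9.71 FPKM (SD, n = 3), Ghrh at 22.1 ± 2.12, Gnrh1 at 14.1 ± 2.10, Crhbp at 8.71 ± 6.16, Crh at 8.56 ± 2.16, Crhr1 at 3.50 ± 0.51, Trhr at 1.58 ± 0.19, Kiss1r at 1.31 ± 0.08 and Crhr2 at 0.66 ± 0.39. The libraries of neighbouring genes overlapped between Gnrh1 and Crhbp and between Crhbp and Crh, and between no other neighbours. In input the order was Trh at 38.6 ± 15.7 FPKM (SD, n = 3), Ghrh at 6.23 ± 3.11, Crhbp at 5.39 ± 1.14, Crh at 4.85 ± 1.84, Crhr1 at 3.23 ± 0.48, Gnrh1 at 1.98 ± 1.57, Trhr at 1.82 ± 0.12, Kiss1r at 1.39 ± 0.07 and Crhr2 at 0.48 ± 0.07. There the libraries overlapped between each pair of neighbours from Ghrh to Trhr. In this order of means Gnrh1 was below Crhr1 in the tissue and above it on the tagged ribosomes, and the other ligands stood above all receptor genes in both. Single input libraries departed from it. In input replicate 2 Gnrh1 had 3.55 FPKM and Crhr1 3.21 FPKM. In input replicate 1 Ghrh (2.94 FPKM) and Crh (2.72 FPKM) were below Crhr1 (3.73 FPKM).

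**Figure D5:**
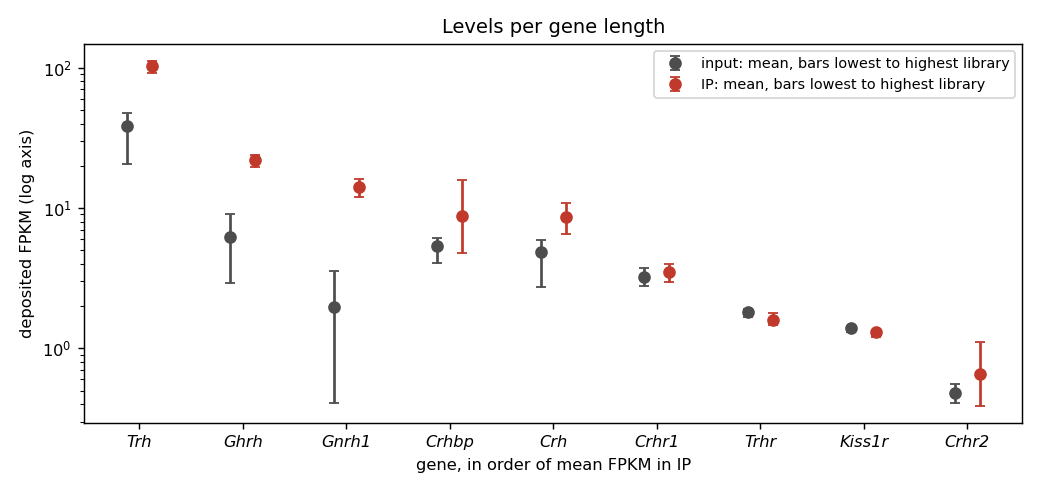
Deposited FPKM (log axis) of the 9 genes, ordered by their mean in IP, with points for means and bars from the lowest to the highest of 3 libraries in input (grey) and IP (red). Trh is highest in both groups, and the bars of Gnrh1 in input span from 0.41 to 3.55 FPKM.

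Other genes of these axes were taken from lists by pathway. The counts below stand beside 12.9% of all genes tested called higher and 17.1% called lower, and with lists of 6 to 10 genes 1 call in a direction is near those shares. Of 8 tested genes upstream of or around GnRH neurons 1 rose and 1 fell. Tac2, the precursor of neurokinin B, a peptide that excites kisspeptin neurons, had 60.8, 63.1 and 65.7 CPM in IP and 10.6, 31.3 and 27.6 CPM in input, with the low input of pool 1 that the ligands have. It rose by 1.45 ± 0.35 (SE, log2, adjusted p = 0.0152, edgeR). The call was lost without IP replicate 3 (adjusted p = 0.053). Prokr2, a prokineticin receptor needed for GnRH neurons to reach the forebrain, fell by 1.11 ± 0.27 (SE, log2, adjusted p = 0.0161, edgeR), and the call was lost without IP replicate 2 or 3 or input replicate 3 (adjusted p = 0.056, 0.051 and 0.087). With the replicate as a block 2 of these genes rose, the second being the oestrogen receptor gene Esr1 at 0.71 (adjusted p = 0.0123, edgeR). Esr1, Hmx2, Thra, Thrb and Nr3c2, whose calls depend on the analysis, and Gnrhr, Ghrhr, Ucn and Ucn3 were chosen to be named after their values were seen. The GnRH receptor gene Gnrhr, a pituitary gene, was under the low-count filter, with 0.19 CPM at most.

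Of 7 tested genes of the GHRH and growth hormone axis 0 rose (1 by an unadjusted p under 0.05, 1 by DESeq2) and 1 fell, the growth hormone receptor gene Ghr, by 1.04 ± 0.20 (SE, log2, adjusted p = 0.00587, edgeR; 0.051 without both libraries of replicate 2). With the block Hmx2, a transcription factor of GHRH neurons, also rose, at 1.57 (adjusted p = 0.014, edgeR, against 0.099 without the block). Ghrhr, the GHRH receptor gene, was under the filter, with 0.09 CPM at most. The list had a median of -0.14.

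Of 7 tested genes around TRH 0 rose (1 by an unadjusted p under 0.05, 1 by DESeq2) and 2 fell. Dio2, which activates thyroid hormone and is made by astrocytes and tanycytes, had 8.32, 7.18 and 5.86 CPM in IP and 69.5, 23.5 and 16.1 CPM in input, and fell by 2.35 ± 0.50 (SE, log2, adjusted p = 0.00989, edgeR). Input replicate 1 was far above the other inputs, and without it the value was -1.47 (adjusted p = 0.00349), and -1.60 without both libraries of replicate 1 (adjusted p = 0.00265, edgeR). With the block the thyroid hormone receptor gene Thra rose, at 0.56 (adjusted p = 0.0122, against 0.051 without the block, edgeR), and Thrb fell, at -0.45 (adjusted p = 0.0486, edgeR). Astrocyte markers, all 10 of them lower, summed to 843 to 1027 CPM in IP and 3286 to 3886 CPM in input, and their part in these falls was not tested.

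Of 6 tested genes around CRH 0 rose (0 by an unadjusted p under 0.05, 0 by DESeq2) and 1 fell, Hsd11b1, which regenerates active glucocorticoid, by 2.35 ± 0.31 (SE, log2, adjusted p = 0.00133, edgeR). Without IP replicate 1 a second gene fell, the mineralocorticoid receptor gene Nr3c2, at -0.75 (adjusted p = 0.041, edgeR). Ucn3, a urocortin and ligand of Crhr2, had 3.12 to 5.30 CPM in IP and 1.91 to 6.998 CPM in input, which overlap. Ucn was under the filter.

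Of 10 genes that cut, carry or store peptide precursors 3 rose and 1 fell. Scg5, a chaperone of the convertase made by Pcsk2, had 301, 299 and 283 CPM in IP and 131, 180 and 137 CPM in input, and rose by 0.98 ± 0.15 (SE, log2, adjusted p = 0.00231, edgeR). Chga, a granin of secretory granules, rose by 1.01 ± 0.21 and Pcsk1n, an inhibitor of the convertase made by Pcsk1, by 0.50 ± 0.14 (SE, log2). Pcsk1, the convertase gene itself, fell by 0.52 ± 0.16 (SE, log2, adjusted p = 0.0402, edgeR). Pcsk1n and Pcsk1 lost their calls in 7 and 9 of 16 alternative analyses, Pcsk1n with library totals as the scaling among them (0.40, adjusted p = 0.064). With the block 4 of the 10 rose and 2 fell. The added rise was Chgb, another granin, at 0.42 (adjusted p = 0.0317, against 0.0687 without the block, edgeR), which DESeq2 also called. The added fall was Cpe, the carboxypeptidase that trims cut peptides, at -0.47 (adjusted p = 0.015, against 0.0703 without the block, edgeR). Chgb and Cpe were chosen after their values were seen. The list had a median of 0.26. Of the 10 genes called in the 5 pathway lists, 1, Hsd11b1, also passed without both libraries of replicate 3.

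The genes most like each member over the 6 libraries, by Pearson correlation of log2 CPM among 13260 protein-coding genes, are given as a description, since 6 libraries in 2 groups leave many genes with near-perfect correlation. Gnrh1 was followed most closely by Fra10ac1 and Faim (r = 0.999 for both), Ghrh by Taf12 and Magee2 (0.997 for both) and Trh by Rps13 (0.999) and Psmc6 (0.998). Crh was followed by Cd200 (0.992) and Cbln4 (0.990). These genes share the low input replicate 1 but with smaller folds, Faim for one having 20.8, 34.5 and 29.0 CPM in input and 44.7 to 48.8 CPM in IP. Crhbp was followed by Pld5 (0.987), which had 53.8 CPM in IP replicate 1 and 17.5 to 22.4 CPM in all other libraries, and Plk5 (0.977). Crhr2 was followed by Ttll12 (0.979) and Inafm2 (0.971), of which Inafm2 had 120 CPM in IP replicate 1 and 38.0 to 54.8 CPM elsewhere. Crhr1 went with Upb1 (0.984) and Mal2 (0.982), Trhr with Zfp354c (0.991) and Pth2r (0.984), and Kiss1r with Polr3e (0.990) and Slc16a13 (0.978).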

How the data were processed

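The authors produced the read counts with HISAT2 and featureCounts on mm39 and tested them with DESeq2, as the submitters' processing notes list; versions and the strand setting are not given in the sources used here. The deposited table also holds the authors' normalized signal (counts over 1 size factor per library, not used in tests), their FPKM, and their DESeq2 log2 fold changes and p-values. Only the deposited counts entered the tests. All genes were fitted with edgeR 4.0.16 (R 4.3.3): TMM, filterByExpr (minimum count 10), glmQLFit and glmQLFTest with group as the one factor, two-sided, Benjamini-Hochberg over the 18640 genes tested, threshold 0.05. The SE is the log2 fold change over the square root of F. On simulated counts for this comparison with 18400 genes fitted, 100 of 100 genes changed 2 log2 units and 56 of 100 changed 1 unit were called. The simulation gave every gene the same spread between libraries and no difference between pools. Some members varied widely, with a coefficient of variation of 79.0% for Gnrh1 in input and 71.3% for Crhbp in IP. These simulated shares therefore do not show how often changes of such members would be called. Alternatives were DESeq2 1.42.0, RLE, upper-quartile and library-total scaling, 2 other filters, the replicate block, and left-out libraries and pools.

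Same-numbered libraries are paired, since the series' design text takes input from each sample. Their deviations from the group means correlated at 0.23, 0.12 and 0.084 in replicates 1, 2 and 3. Libraries of unlike number correlated from -0.19 to 0.076. The highest of these was IP replicate 3 with input replicate 2, so that the correlations hardly set the pair of replicate 3 apart. Members and lists were chosen with earlier results of these data known, and the 5 within-library ratios after the values were seen. Named genes are the members, Pnoc, in each pathway list the called genes (3 smallest p per direction), and the 2 most correlated genes per member; others are marked where named. The values of 1 called gene are not reported here. Promoters are RefSeq's on GRCm38.p6; gene positions are the table's on mm39, and exon overlaps are from GENCODE on GRCm39.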

Additional observations from a re-analysis of the deposited data

How the results depend on the processing

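The 3 calls among the 9 members were made under every alternative except those without input replicate 3, where Gnrh1 did not pass, and without both libraries of replicate 3, where none did; Crh and the 5 receptor and binding-protein genes passed under none of the 16. Left-out libraries and pools gave between 0 and 3 members higher and 0 lower. Over all genes, 2400 were higher and 3191 lower; left-out libraries and pools gave from 133 to 2630 higher and from 742 to 3080 lower. Single libraries that moved these counts by over 1.5 times were IP replicate 2 (1479 higher), IP replicate 3 (1417 higher) and input replicate 3 (1445 higher, 2035 lower), and without both libraries of replicate 2 there were 1508 higher and 2095 lower. With the replicate block 3 members were higher and 0 lower, and 2838 genes were higher and 3617 lower; the block changed no call among the members. Crhbp and Crhr2 turned below 0 without IP replicate 1 (-0.09 and -0.18) or without the whole of replicate 1 (-0.01 and -0.06), and passed the test in no analysis. Gnrh1 had 14 to 126 counts per library in input, and Crhr2 had 92 to 267 counts per library. Some of these libraries lay further apart than counting error alone. For Gnrh1 the exact Poisson intervals (95%) were 7.65 to 23.5 counts in input replicate 1 and 105 to 150 in input replicate 2. For Crhr2 they were 236 to 301 counts in IP replicate 1 and 74.2 to 113 in IP replicate 2.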
